A study of Homo sapiens with 6 samples.

Results

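Activator protein 1 (AP-1) is a dimeric transcription factor built from basic leucine zipper proteins. Its subunit genes were described here in Raji cells treated with bryostatin-1. The 10 genes FOS, FOSB, FOSL1, FOSL2, JUN, JUNB, JUND, BATF, BATF3 and ATF3 were taken by gene name, with no cutoff on their values, from a table of 58735 genes, and each name stood on 1 row. Raji is a Burkitt lymphoma B-cell line. The cells of both groups carried the GFP-ffluc reporter genotype and were held overnight at 37 °C, in 3 libraries with the solvent DMSO and in 3 libraries with 1 nM bryostatin-1. Whether the 3 libraries of a group stem from separate cultures is not labelled. The p-values therefore reflect variation among these libraries, some of which may be technical.

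The JUN proteins can pair with each other, whereas the FOS proteins need a JUN partner to bind DNA. Dimers recognise the phorbol ester response element (TRE) or the related cyclic AMP response element (CRE). BATF proteins lack the transactivation domains of FOS and, in lymphocytes, bind with JUN partners next to IRF4 or IRF8. ATF3 is a stress-induced member that pairs with JUN proteins. FOS, JUN and JUNB are classical immediate early genes: protein kinase C, which phorbol esters and bryostatin bind, can induce them through the MAP kinase cascade within minutes, and their short-lived mRNAs usually decay within hours. Overnight exposure samples a later time than that early response.

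The start-site windows of RefSeq (GRCh38.p14, 250 bases before to 50 bases after each start) covered 8 of the 10 genes, ATF3 with a pair of windows. Of these windows the 250 bases before the start are printed for FOS and JUNB, the members above 1 FPKM whose levels had the same 3 highest libraries, and for JUND, the most abundant member, which did not share that pattern. The starts are those of RefSeq, and the deposited gene spans place some of them elsewhere. The deposited FOS gene begins at base 75278774, inside the printed FOS stretch. Each stretch runs 5′ to 3′ on the gene's own strand, with matches to the searched letters in capitals.
FOS, chr14:75278578-75278827, plus strand: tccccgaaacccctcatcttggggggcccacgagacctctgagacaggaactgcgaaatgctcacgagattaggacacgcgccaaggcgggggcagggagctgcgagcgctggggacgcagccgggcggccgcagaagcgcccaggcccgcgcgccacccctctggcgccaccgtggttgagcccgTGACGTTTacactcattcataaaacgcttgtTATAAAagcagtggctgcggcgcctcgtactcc
JUNB, chr19:12791236-12791485, plus strand: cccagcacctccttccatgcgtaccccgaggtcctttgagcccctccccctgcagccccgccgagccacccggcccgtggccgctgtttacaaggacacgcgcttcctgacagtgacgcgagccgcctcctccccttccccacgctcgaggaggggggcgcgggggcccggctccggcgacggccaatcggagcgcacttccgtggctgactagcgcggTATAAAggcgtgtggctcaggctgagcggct
JUND, chr19:18281623-18281872, minus strand: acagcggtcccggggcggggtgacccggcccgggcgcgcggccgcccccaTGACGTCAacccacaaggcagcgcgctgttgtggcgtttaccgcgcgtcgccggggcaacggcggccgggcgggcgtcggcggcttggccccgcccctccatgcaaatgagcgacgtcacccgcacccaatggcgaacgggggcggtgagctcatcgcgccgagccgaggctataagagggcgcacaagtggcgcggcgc

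The letters searched on both strands were TGACTCA (TRE), TGACGTCA (CRE) and the CArG box, the site of serum response factor. TGACGTTT, TGACATCA and the TATA box letters TATAAA were added after the windows had been read. The CRE letters were found only in JUND, 200 bases before its start, and are held by 1.85% of all 35116 windows. TGACGTTT, a CRE variant, was found only in FOS, 64 bases before the start (0.487% of windows). TATAAA was found 33, 31 and 30 bases before the starts of FOS, JUNB and FOSB, and also farther upstream in 1 ATF3 window (11.5% of windows). TGACATCA, a TRE variant, was found 67 bases before the start of JUN and 123 bases before an ATF3 start (2.61% of windows). The TRE letters were found only just after the start of FOSL2 (4.95% of windows). No member window held a CArG box (1.29% of windows). Bases farther upstream than these windows were not searched, so a CArG box there, at FOS or another member, would have been missed. No letters overlapped another match in these windows, and a match is a description of letters, not of a bound site.

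Polyadenylated RNA was measured as FPKM, in which reads are divided by gene length and depth, so levels of different genes can be compared. The libraries held 19405370 to 24468270 reads on genes, recovered from the deposited values. B-cell identity was present: all 6 B-cell markers (MS4A1, CD79A, CD79B, PAX5, CD22 and BLNK) had a mean of at least 1 FPKM, and they summed to 875.9 to 1361.0 FPKM with DMSO and 927.8 to 1274.5 FPKM with bryostatin. The 5 monocyte markers all had means below 1 FPKM, and of the 4 fibroblast markers PDGFRB, COL1A2 and DCN had no reads. T-cell markers summed to 3.26 to 11.8 FPKM with DMSO and 3.49 to 13.6 FPKM with bryostatin, with CD2 at 0 reads. In a bulk library, fewer cells with a transcript and less transcript per cell cannot be told apart.

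Raji cells expressed AP-1 genes very unequally, and no member differed between bryostatin and DMSO beyond the spread of the libraries. JUND and JUNB stood far above the rest, at 41.3 FPKM or more in every library. BATF, FOS and JUN lay between 0.895 and 5.80 FPKM, and FOSL2, FOSB, ATF3 and FOSL1 at or below 1.05 FPKM. BATF3 had no reads in any library. Of the 5 members with a mean of at least 1 FPKM, the level required for testing, 0 passed an adjusted p of 0.05 in limma, 0 had an unadjusted p under 0.05, and 0 were free of overlap between the groups. Over all 11071 genes tested these shares were 0%, 17.6% and 23.6%. The 17.6% are 1954 genes, a number that ran from 913 without bryostatin replicate 1 and 969 without DMSO replicate 1 to 2861 without DMSO replicate 3. The sign was positive for 4 of the 5 members as deposited, for 3 with TPM scaling and for 2 with quantile normalisation. With the requirement lowered to 0.1 FPKM, 9 members were tested and the counts were again 0, against 0%, 13.7% and 19.3% of 17559 genes. The median log2 change was 0.13 over the 5 members and 0.10 over the 9, beside 0.02 and -0.0021 over all genes of the same fits. Over the 5 members it was 0.080 with TPM scaling and -0.0010 with quantile normalisation, beside -0.026 and -0.0060 over all genes.

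**Figure D1:**
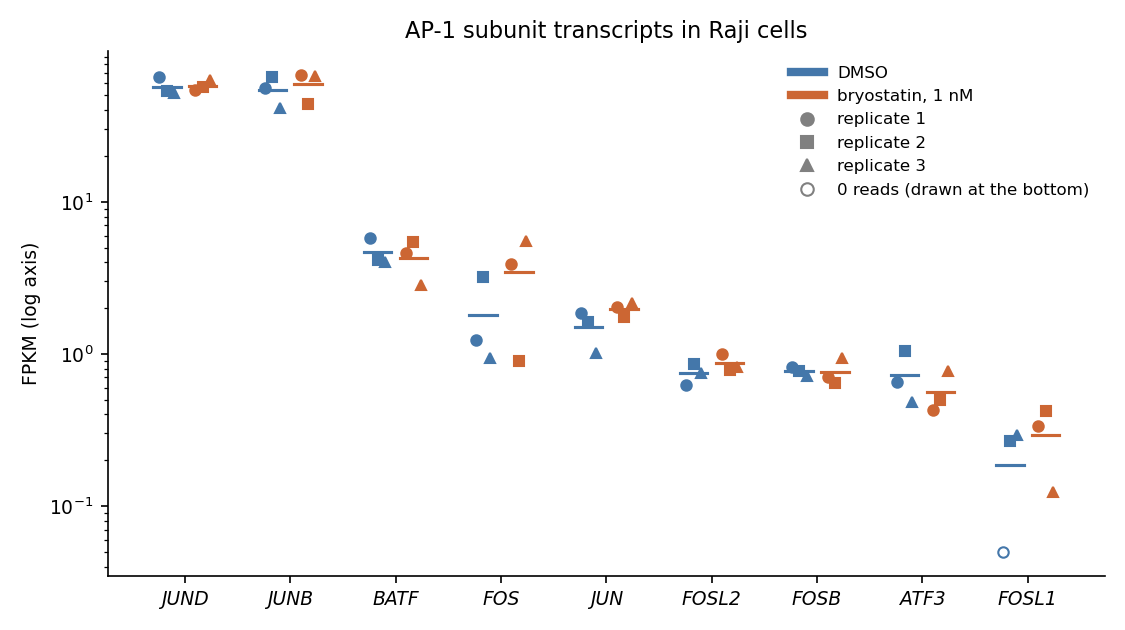
FPKM of each AP-1 gene with reads (log axis) in the 3 DMSO and 3 bryostatin libraries, with replicates as symbols and the mean of each group as a bar. An open circle at the bottom marks the library with 0 reads of FOSL1. The groups overlapped for all 9 genes. JUND and JUNB lay far above the others, and FOS had the widest scatter of the genes above 1 FPKM.

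JUND encodes a JUN protein made constitutively in many cells. It was at 65.9, 53.5 and 51.8 FPKM in DMSO replicates 1 to 3 and at 54.0, 56.7 and 63.1 FPKM in bryostatin replicates 1 to 3. The highest library was a DMSO one and the bryostatin libraries lay inside the DMSO range. The means were 57.1 ± 7.66 and 57.9 ± 4.69 FPKM (SD, n = 3 each), a log2 change of 0.03 with a 95% interval from -0.25 to 0.31 (adjusted p = 0.927 in limma). On the FPKM + 1 scale the interval runs from 0.839-fold to 1.24-fold. The sign turned with TPM scaling, with quantile normalisation and without DMSO replicate 2, DMSO replicate 3 or bryostatin replicate 3. JUND is gene ENSG00000130522 on chromosome 19 (18279760 to 18281622, minus strand, hg38).

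JUNB encodes a JUN protein that can restrain JUN activity and is often abundant in lymphoma cells. It was at 56.3, 66.1 and 41.3 FPKM with DMSO and at 68.5, 43.7 and 67.1 FPKM with bryostatin. DMSO replicate 3 and bryostatin replicate 2 were the lowest, DMSO replicate 1 was intermediate and the other libraries were higher, so the groups overlapped over nearly their whole range. The means were 54.6 ± 12.5 and 59.8 ± 13.9 FPKM, a log2 change of 0.13 (95% interval -0.41 to 0.66, adjusted p = 0.791 in limma). Its sign turned with quantile normalisation and without DMSO replicate 3. JUNB (ENSG00000171223, chromosome 19, 12791496 to 12793315, plus strand) lies wholly within the span of HOOK2, a gene of the opposite strand at a mean of 6.68 FPKM. The strand setting of the counting is not given in the sources used here, so reads of overlapping genes cannot be told apart.

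JUN encodes c-Jun, the partner that forms the strongest dimers with FOS. It was weak, at 1.85, 1.62 and 1.02 FPKM with DMSO and 2.03, 1.75 and 2.17 FPKM with bryostatin, from 72 to 166 reads. DMSO replicate 3 was the lowest library, and bryostatin replicate 2 lay below DMSO replicate 1, so the groups overlapped. With a log2 change of 0.27 (SE 0.15, 95% interval -0.09 to 0.63), JUN had the smallest p of the members (unadjusted p = 0.115, adjusted p = 0.376 in limma). The exact two-sided permutation test of 3 against 3 gave p = 0.2, where the smallest p it allows is 0.1. Without DMSO replicate 3 the log2 change was 0.12. JUN is gene ENSG00000177606 on chromosome 1 (58780788 to 58784327, minus strand).

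FOS, whose product c-Fos is the prototype partner of the JUN proteins, was the most variable member above 1 FPKM. It was at 1.23, 3.21 and 0.940 FPKM with DMSO, from 98, 228 and 61 reads. With bryostatin it was at 3.91, 0.895 and 5.54 FPKM, from 240, 58 and 387 reads. The highest and the lowest library of all 6 were both bryostatin libraries, 6.19-fold apart, and the DMSO libraries lay between them. The exact 95% Poisson intervals of those reads, 44.0 to 75.0 and 349.4 to 427.5, cover counting error only and were far apart. The means were 1.79 ± 1.24 and 3.45 ± 2.36 FPKM, a ratio of 1.92, and the SD was 69.0% and 68.3% of the mean. The log2 change was 0.58 (SE 0.49), with a 95% interval from -0.57 to 1.73 (adjusted p = 0.543 in limma; exact two-sided permutation p = 0.5). On the FPKM + 1 scale the interval reaches 3.31-fold higher at one end and 0.675-fold at the other. Without bryostatin replicate 2 the log2 change was 1.11 (unadjusted p = 0.0160, adjusted p = 0.253 in limma), and without bryostatin replicate 3 it was 0.21. FOS is gene ENSG00000170345 on chromosome 14 (75278774 to 75282230, plus strand).

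The other FOS genes were near the limit of testing. FOSL2, which encodes Fra-2, was at 0.624, 0.855 and 0.753 FPKM with DMSO and 0.994, 0.789 and 0.822 FPKM with bryostatin, and its groups overlapped by a single DMSO library. FOSB was at 0.826, 0.773 and 0.719 FPKM with DMSO and 0.703, 0.639 and 0.935 FPKM with bryostatin, the latter group enclosing the former. FOSB lies wholly within the span of ERCC1, an opposite-strand gene with a mean of 860.7 reads per library against 90.7 for FOSB, which makes its level uncertain. FOSL1, which encodes Fra-1, was at 0, 0.266 and 0.291 FPKM with DMSO and 0.335, 0.424 and 0.123 FPKM with bryostatin, from at most 16 reads in a library. Its 0 reads in DMSO replicate 1 allow up to 0.0645 FPKM, the level of 3 reads. In the fit that included genes down to 0.1 FPKM, the log2 changes were 0.10 for FOSL2, -0.01 for FOSB and 0.13 for FOSL1, with adjusted p = 0.675, 0.963 and 0.712 in limma.

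BATF, a factor of B-cell class switching and T-cell differentiation, was the third most abundant member. It was at 5.80, 4.14 and 4.02 FPKM with DMSO and 4.57, 5.46 and 2.84 FPKM with bryostatin. The lowest library, bryostatin replicate 3, was the one highest for FOS. The means were 4.66 ± 0.990 and 4.29 ± 1.33 FPKM, a log2 change of -0.12 (95% interval -0.61 to 0.38, adjusted p = 0.794 in limma). The sign turned without DMSO replicate 1 or bryostatin replicate 3. BATF is gene ENSG00000156127 on chromosome 14 (75522425 to 75547015, plus strand). ATF3 was at 0.653, 1.05 and 0.482 FPKM with DMSO and 0.431, 0.495 and 0.769 FPKM with bryostatin, with a log2 change of -0.14 in the fit down to 0.1 FPKM (adjusted p = 0.711 in limma). BATF3, a partner of JUN in dendritic cells and some lymphomas, had 0 reads in all 6 libraries. For its length of 2713 bases this allows up to 0.0449 to 0.0583 FPKM, depending on the library.

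**Figure D2:**
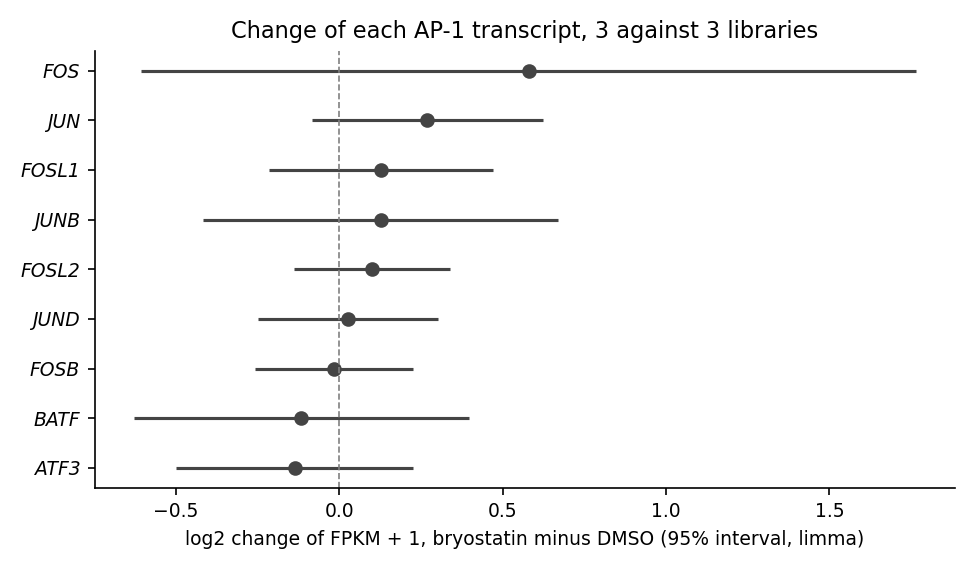
Log2 change of FPKM + 1 (bryostatin minus DMSO, x axis) for each of the 9 AP-1 genes with reads, with 95% intervals from limma fitted over genes of at least 0.1 FPKM. All intervals include 0. That of FOS is the widest, and those of FOSB, FOSL2 and JUND are among the narrowest.

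The order of the levels was alike in both groups. JUND and JUNB did not differ beyond their spread in either group, and both lay above BATF with no overlap. BATF lay above FOS without overlap in the DMSO libraries, whereas the bryostatin libraries of BATF and FOS overlapped. FOS and JUN overlapped in both groups, and JUN lay above FOSB and FOSL2 with no overlap. Within the run of FOSB, FOSL2 and ATF3, genes next to each other in the order overlapped in both groups. ATF3 lay above FOSL1 with no overlap. Among all protein-coding genes, 3.06% had a higher mean than JUND and 3.09% than JUNB, against 39.0% for FOS and 42.7% for JUN.

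JUN genes made up nearly all of the summed AP-1 level, because of JUNB and JUND. The 3 JUN genes held 92.7% ± 0.506 of the summed FPKM of the 10 members with DMSO and 92.1% ± 0.197 with bryostatin (SD, n = 3 libraries each). The 4 FOS genes held 2.01%, 3.88% and 2.67% in the DMSO libraries and 4.38%, 2.48% and 5.17% in the bryostatin libraries, and the groups overlapped. The ratio of summed JUN to summed FOS genes ran from 23.7 to 46.3 with DMSO and from 17.9 to 37.2 with bryostatin. BATF and ATF3 held 4.41% ± 0.448 and 3.86% ± 1.43. JUNB was the most abundant member in DMSO replicate 2 and bryostatin replicates 1 and 3, with 1.06 to 1.27 times the level of JUND. JUND was the most abundant in the other libraries, where that ratio was 0.771 to 0.855. These are levels of mRNA, and no protein or dimer was measured.

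**Figure D3:**
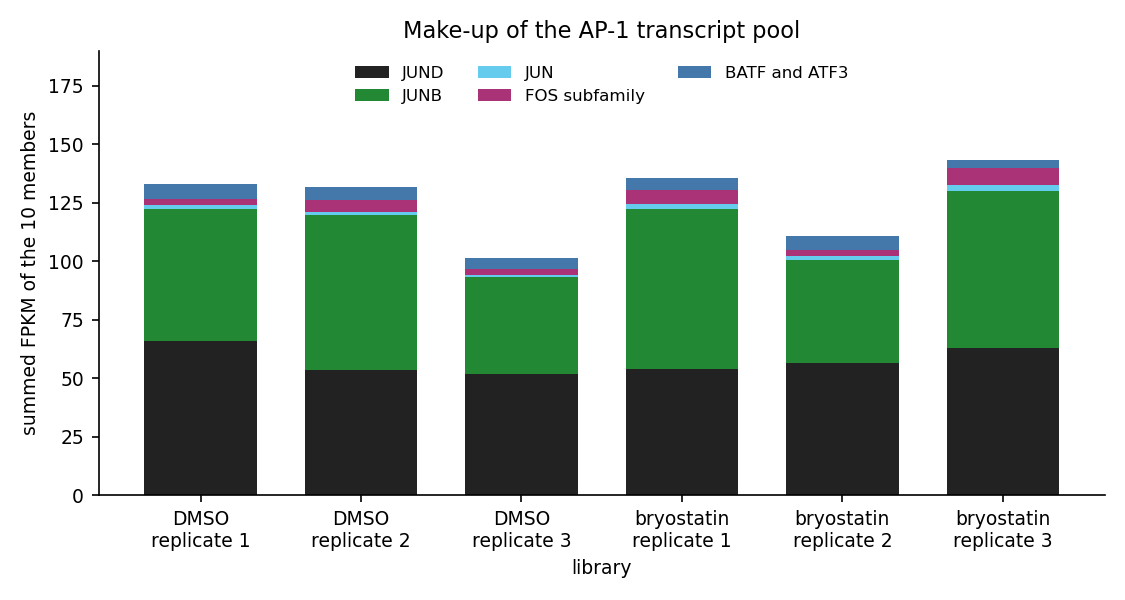
Summed FPKM of the 10 AP-1 genes in each library (bar height, from 0), divided into JUND, JUNB, JUN, the 4 FOS genes, and BATF with ATF3. JUND and JUNB form most of every bar, and the total runs from 101.3 FPKM in DMSO replicate 3 to 143.5 FPKM in bryostatin replicate 3.

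The libraries high in FOS were also high in JUNB, and they came from both groups. The 3 highest libraries of both genes, and of FOSL2, were DMSO replicate 2 and bryostatin replicates 1 and 3, and the other 3 were lower. The early response gene EGR1, a zinc finger factor induced through the same MAP kinase route, was at 8.71, 20.3 and 6.16 FPKM with DMSO and 30.0, 6.45 and 29.5 FPKM with bryostatin. IER2 was at 29.2 FPKM in DMSO replicate 2 and at 37.8 and 35.8 FPKM in bryostatin replicates 1 and 3, against 9.60 to 14.3 FPKM in the other libraries. Of the 8 listed early response genes outside AP-1, EGR1, IER2 and EGR2 had the same 3 high libraries as FOS. IER5 and NR4A1 shared 2 of these among their own 3 highest, EGR3 and IER3 shared 1, and MYC shared 0. Of the other AP-1 genes with reads, JUN, FOSB and ATF3 shared 2, and JUND, BATF and FOSL1 shared 1. The share of all tested genes with the same 3 highest libraries was not counted, so these counts have no reference. The FOS levels fell into 3 high and 3 low libraries, so no correlation was tested.

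**Figure D4:**
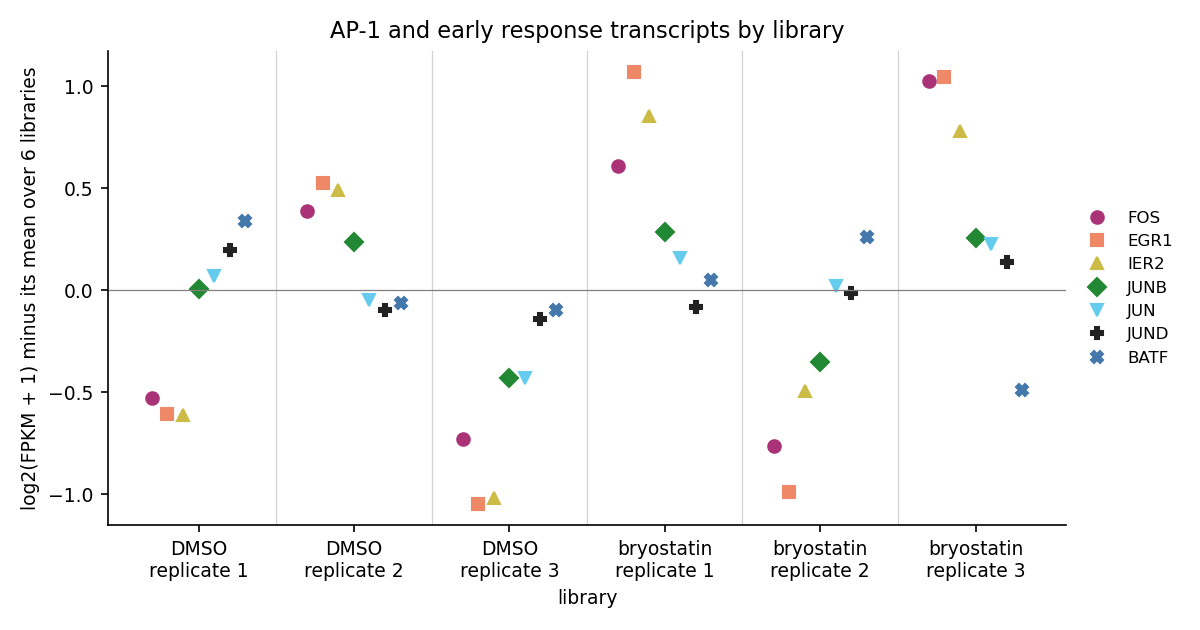
Log2(FPKM + 1) minus its mean over the 6 libraries (y axis) for 5 AP-1 genes and the early response genes EGR1 and IER2, in each library (x axis). FOS, EGR1, IER2 and JUNB were above their means together in DMSO replicate 2 and bryostatin replicates 1 and 3, while JUND and BATF did not follow them.

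Other measures of the libraries stood as follows. Summed heat shock genes (HSPA1A, HSPA1B, DNAJB1 and HSPH1) were at 42.7, 40.0 and 73.3 FPKM with DMSO and 86.2, 71.5 and 59.5 FPKM with bryostatin. Mitochondrial transcripts took 2.68%, 3.05% and 3.22% of reads with DMSO and 2.78%, 3.35% and 2.86% with bryostatin. The slope of a library's log2 deviation from the mean of all libraries over the tested genes, per doubling of gene length, was 0.018, -0.015 and 0.038 with DMSO and -0.023, -0.011 and -0.0074 with bryostatin. It was negative in the 3 libraries high in FOS, and also in bryostatin replicate 2, the lowest in FOS. The part of these measures in the FOS and JUNB levels was not tested. By Pearson correlation over the 6 libraries, the tested protein-coding genes most like FOS were GAS7 (r = 0.99) and DGAT1 (r = 0.99), and those most like JUNB were LRP10 (r = 0.99) and GTPBP1 (r = 0.98). BRF1 and NCBP2 were most like BATF (r = 0.99 and 0.98), and ADCK2 and PARP11 most like JUND (r = 0.97 and 0.97). Of 9264 genes compared, 181 had r over 0.9 with FOS and 177 with JUNB, against 31 with BATF and 19 with JUND. These values over 6 libraries are given as a description, and such counts were not computed for other tested genes.

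The other genes of the pathway were counted by role in the fit over genes of at least 1 FPKM. No listed gene passed an adjusted p of 0.05 in limma or with voom precision weights. An unadjusted p under 0.05 was reached by 10.5% of all tested genes with a higher mean and 7.18% with a lower mean under bryostatin. Of 19 tested bZIP genes that pair or compete with AP-1 subunits, 0 higher genes and 3 lower genes reached it, with a median log2 change of -0.04. BACH1, a repressor that pairs with small MAF proteins, was at 4.49 ± 0.216 FPKM with DMSO and 3.41 ± 0.190 FPKM with bryostatin, with no overlap (adjusted p = 0.217 in limma). ATF7 and CREB5 had log2 changes of -0.27 and -0.27, also with no overlap. ATF4, the stress-response factor, was the most abundant of the list at 95.2 ± 9.96 and 112.4 ± 5.83 FPKM, again with no overlap. NFE2L1 was the next, with a log2 change of -0.06. Of the 19 genes, 2 higher and 4 lower had no overlap between groups, beside 23.6% of all tested genes in either direction.

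Of 17 tested factors that act at FOS and JUN promoters or beside BATF, 0 higher and 3 lower genes reached an unadjusted p under 0.05, with a median log2 change of -0.12. They were MRTFA, an SRF coactivator, with a log2 change of -0.30, ELK4, an ETS partner of SRF, with -0.20, and IRF4, the BATF partner, with -0.34 (adjusted p = 0.217, 0.282 and 0.282 in limma). IRF4 was weak, at 1.32 ± 0.314 FPKM with DMSO and 0.819 ± 0.162 FPKM with bryostatin. With quantile normalisation IRF4 had an unadjusted p = 0.0830 in limma. Without DMSO replicate 1, IRF4 and ELK4 had unadjusted p = 0.170 and 0.135 in limma. The count of lower genes was 4 with TPM scaling and 4 with quantile normalisation. IRF8, which can take its place beside BATF, was at 43.9 ± 4.45 and 39.8 ± 2.25 FPKM, and SPI1 at 48.5 ± 2.68 and 51.4 ± 2.39 FPKM, both with overlapping groups. Of the 17 genes, 1 higher and 4 lower had no overlap between groups, beside 23.6% of all tested genes in either direction. MRTFA, ELK4 and IRF4 were among the lower ones.

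Of 19 tested kinases of the MAP kinase cascade, 0 higher genes and 1 lower gene reached that level, with a median log2 change of -0.06. The lower one was MAPK3, which encodes ERK1, at 16.6 ± 1.11 FPKM with DMSO and 13.7 ± 1.52 FPKM with bryostatin, with overlapping groups (adjusted p = 0.261 in limma). MAP2K7, a JNK activator, had a log2 change of 0.22 with no overlap, and RPS6KA3 of -0.15 with overlapping groups. Of the 19 genes, 1 higher and 1 lower had no overlap between groups, beside 23.6% of all tested genes in either direction. MAP2K1 and MAP2K2, the kinases above ERK and the most abundant of the list, were at 48.1 ± 2.72 and 32.3 ± 3.07 FPKM with DMSO and at 51.0 ± 0.690 and 30.7 ± 0.430 FPKM with bryostatin.

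Among 17 tested genes of AP-1 protein modification and mRNA turnover, 5 with a higher mean and 1 with a lower mean reached an unadjusted p under 0.05, with a median log2 change of 0.14. In all, 13 had a positive sign, but 11 did with TPM scaling, where 4 higher genes and 1 lower gene reached that level, and with quantile normalisation, where 3 and 1 did. HNRNPD, which binds AU-rich mRNA such as that of FOS, was at 58.0 ± 2.26 FPKM with DMSO and 89.9 ± 13.6 FPKM with bryostatin, with no overlap (log2 change 0.61, adjusted p = 0.216 in limma). COPS5, a signalosome subunit that binds JUN, had a log2 change of 0.29, and ZFP36L2, an mRNA decay factor, 0.32. APEX1, a redox activator of AP-1, had 0.29, and KHSRP, another binder of AU-rich mRNA, 0.29 with overlapping groups. The lower gene, GSK3B, had -0.22 and was named after its value was seen. Of the 17 genes, 5 higher and 1 lower had no overlap between groups, beside 23.6% of all tested genes in either direction.

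Textbook AP-1 targets were mostly weak. Of 30 listed genes, 10 had no reads at all, among them the collagenase MMP1 and the cytokine genes IL2, IL6 and CSF2. Among all protein-coding genes, 75.2% had reads in at least 1 library. The level for testing was reached by 10 listed genes. Of those, 0 had an unadjusted p under 0.05, and their median log2 change was -0.0058. EZR and MT2A, the most abundant, were at 133.6 ± 16.7 and 65.6 ± 14.1 FPKM with DMSO and at 131.0 ± 8.46 and 66.4 ± 17.1 FPKM with bryostatin. NQO1, IL10 and TGFB1 had the smallest p of the list, with log2 changes of 0.26, -0.15 and -0.13 and overlapping groups. Of 4 tested early response genes outside AP-1, 0 had an unadjusted p under 0.05. IER2, EGR1 and MYC had log2 changes of 0.76, 0.75 and -0.17, and the smallest adjusted p of the list was 0.419 in limma. With each library left out, EGR1 ran from 0.40 (without bryostatin replicate 1) to 1.43 (without bryostatin replicate 2), IER2 from 0.44 (without DMSO replicate 3) to 1.196 (without bryostatin replicate 2), and MYC from -0.06 (without DMSO replicate 3) to -0.29 (without DMSO replicate 2).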

How the data were processed

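The deposited values are FPKM that the authors computed per gene and library, beside each gene's length. Named in the submitters' processing notes, with no role, are featureCounts 1.5.0-p3, HISAT2 2.0.5, CASAVA and hg38, as well as DESeq2 1.20.0. Strand handling of the counting is not given in the sources used here. Reads were recovered as FPKM times length over the step of each library. They came out whole (tolerance 0.001) in 100% of values. Intervals and limits from reads cover counting error only.

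The comparison used limma 3.58.1 (R 4.3.3) on log2(FPKM + 1) of genes averaging 1 FPKM or more, with trended moderation and Benjamini-Hochberg adjustment over all tested genes. Members under that mean were fitted with a filter of 0.1 FPKM. The fit was tested on simulated data that gave every gene the same relative scatter beyond counting error. That test does not cover genes with more scatter than was simulated, among them FOS, JUNB and BATF. Fold changes on this scale understate changes of weak genes. Alternatives covered pseudocounts, filters, scalings, moderation, voom weights on the reads, a replicate block and each library left out.

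The members and lists were chosen with earlier results of these data known, and some listed genes are not reported here. All members are named, and of each list the 3 tested genes with the smallest p and the 2 most abundant. Of the 4 most abundant members, the 2 most correlated genes are named.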

Additional observations from a re-analysis of the deposited data

How the results depend on the processing

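No AP-1 member and no pathway list gene passed under any alternative run. Over all genes the count of 0 became 1 with a pseudocount of 0.1 and 1 with TPM, and ran from 0 to 267 with each library left out, the 267 without DMSO replicate 3. At an unadjusted p under 0.05 the split of 1159 higher and 795 lower became 848 and 1099 with TPM and 897 and 1010 with quantile normalisation.

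The log2 change of FOS kept its sign in 16 alternatives, from 0.21 to 1.11, as did that of JUN, from 0.12 to 0.43. JUNB turned to -0.0010 with quantile normalisation and -0.057 without DMSO replicate 3, and reached 0.33 without bryostatin replicate 2. JUND turned to -0.022 with TPM and -0.094 with quantile normalisation, and ran from -0.038 to 0.13 with each library left out. BATF ran from -0.28 to 0.10 with each library left out. Among list genes, quantile normalisation turned SPI1 to -0.039, MAP2K1 to -0.037 and MT2A to -0.10, and TPM turned MT2A to -0.039. With each library left out, MT2A ran from -0.18 to 0.18, MAP2K2 from -0.13 to 0.0042 and EZR from -0.13 to 0.042. The cause was not tested.

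With the replicate block 0 genes passed, and 1191 had an unadjusted p under 0.05 against 1954 without it. Leaving out 1 library gave 913 (without bryostatin replicate 1), 969 (without DMSO replicate 1) and 2861 (without DMSO replicate 3), with the others between 1486 and 1893. The deviations of same-numbered libraries from their group means had r = -0.29, -0.32 and -0.11 over genes. Pairs with unlike numbers ran from -0.064 to 0.32. The deviations of the 3 libraries of a group sum to 0, which constrains these values. Whether equal numbers mark a shared culture or batch is not labelled, and these values cannot decide it. Reads of 0 to 16 limit FOSL1, and 3 reads set the limit for BATF3.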
